A study of Mus musculus with 12 samples.

Results

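The genes described here are the cytochrome P450 genes of the mouse outside the drug-induced Cyp2b and Cyp3a subfamilies and outside *Cyp7a1*, *Cyp7b1*, *Cyp8b1* and *Cyp27a1* of bile acid synthesis. Of 54838 genes in the liver count table, 99 had a P450 symbol of the form Cyp, family number, subfamily letter and gene number, with pseudogenes left out. A total of 81 lay outside the groups just named, and 51 of these had at least 10 counts in at least 3 libraries. The 51 genes fall into 21 subfamilies, 14 of which are represented by 1 gene. They were chosen by name and by this count filter, which 30 of the 81 did not pass.

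Cytochrome P450 enzymes are haem proteins of the endoplasmic reticulum and mitochondria that insert an oxygen atom into a substrate, with electrons delivered by a reductase or a ferredoxin. In the liver they clear drugs and solvents, but many of those considered here act on the body's own lipids: the Cyp4 family hydroxylates the far end of fatty acids, Cyp2c and Cyp2j enzymes turn arachidonic acid into epoxides and alcohols, Cyp26 enzymes break down retinoic acid, and Cyp39a1 hydroxylates an oxysterol. Their transcription is governed by ligand-activated receptors such as the dioxin receptor, PPARα, CAR and PXR, by liver-enriched factors and by sex-dependent growth hormone pulses.

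The liver RNA came from female wild-type C57BL/6J mice aged 8 to 14 weeks, which carried no transgene or deleted allele. All mice drank their assigned water for 7 days, were injected intraperitoneally and were sampled 2 h later. HP mice had plain water and PBS, ZP mice 25 mM ZnSO4 in the water and PBS, HD mice plain water and 200 µg dexamethasone (Dex), and ZD mice 25 mM ZnSO4 and 200 µg Dex. Dex is a synthetic agonist of the glucocorticoid receptor, and each of the 4 groups has 3 libraries that the series calls biological replicates. Libraries held 9091152 to 12303527 counts, of which the 51 genes took 1.96% to 2.35%. Values are counts divided by DESeq2 size factors ("normalized counts"), and levels of different genes are set side by side only per kb of exon. LFC is the log2 fold change, and a gene is called when its DESeq2 adjusted p is under 0.05 and its LFC above 0.8 or below -0.8, which is a fold of 1.74. In bulk liver RNA, fewer cells of a type and less RNA per cell cannot be told apart.

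A short stretch of the coding sequence identifies these genes as P450s and shows how closely some of them resemble each other. The 30 bases below, from GENCODE M21 transcripts, run 5′ to 3′ across the codon of the cysteine that holds the haem iron, which is in capitals. A search for the family signature (phenylalanine, glycine, arginine, cysteine and glycine at fixed spacing) found it in 49 of the 51 longest reading frames. In *Cyp39a1* it was found only when the arginine place was left free, and in *Cyp20a1* it was not found. The genes shown are the 10 that were called in a Dex comparison.
Cyp1a1: tttggtttgggcaagcgaaagTGCatcgga
Cyp2u1: tttgggatagggaagcgggtgTGTatggga
Cyp4a10: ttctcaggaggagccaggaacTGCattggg
Cyp4a14: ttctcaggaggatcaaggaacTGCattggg
Cyp4a31: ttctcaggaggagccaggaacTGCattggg
Cyp4a32: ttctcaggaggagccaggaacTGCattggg
Cyp4f17: ttttctgctgggcctaggaacTGCatagga
Cyp26a1: tttggaggaggccttcggagcTGTgtaggc
Cyp26b1: tttggcggtggcgtgcggaccTGCctgggc
Cyp39a1: tttggaggcgggaagttccagTGTcctgga

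The stretch is identical in *Cyp4a10*, *Cyp4a31* and *Cyp4a32*, while *Cyp4a14* differs from them at 2 of 30 bases. Over the whole coding sequence, *Cyp4a10* and *Cyp4a32* are 97.2% identical, and *Cyp4a10* and *Cyp4a14* 76.2%. Such likeness matters because the authors left out reads that mapped to several places. Of all 50-base windows in its transcripts, 43.8% of those of *Cyp4a32*, 29.8% of *Cyp4a10* and 20.6% of *Cyp4a31* also occur in another gene, against 0.235% for *Cyp4a14*. The highest shares among the 51 genes were 60.3% for *Cyp2c40*, 54.3% for *Cyp2c69* and 52.8% for *Cyp2c67*. Levels of these genes may therefore be counted too low, whereas *Cyp39a1*, *Cyp26a1* and *Cyp26b1* have no such window. The window length was a choice made here, so these shares are not shares of reads lost. The effect on differences between groups was not tested.

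Expression was concentrated in a few genes. *Cyp2e1*, the ethanol- and solvent-oxidising P450, was the most abundant, with a mean over the 12 libraries of 35015 normalized counts per kb, and alone made up 31.7% of the summed per-kb level of the 51 genes. The first 5 genes made up 51.8% and the first 10 made up 70.5%. After *Cyp2e1* came *Cyp2c29* at 6185 per kb, *Cyp2c69* at 5951, *Cyp4a14* at 5281, *Cyp2d26* at 4889 and *Cyp2c70*, which makes the mouse muricholic acids, at 4756. The ranges over libraries of these last 5 genes overlap, so their order is not fixed by these data. *Cyp1a2*, which oxidises caffeine and aromatic amines, reached 3858 per kb, and *Cyp2f2*, the naphthalene-oxidising P450 of periportal hepatocytes, 3757.

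At the other end were *Cyp2u1* at 5.16 normalized counts per kb, *Cyp46a1*, the cholesterol 24-hydroxylase of the brain, at 4.01, and *Cyp1b1*, a dioxin receptor target, at 2.46. By subfamily, the 13 Cyp2c genes summed to 35259.8 per kb, close to the 35015 of *Cyp2e1* alone. The 4 Cyp4a genes summed to 9189.9, the 6 Cyp2d genes to 8338 and the 4 Cyp2a genes to 6867 per kb. The genes called in a Dex comparison spanned this range, from *Cyp4a14* near the top to *Cyp2u1* near the bottom.

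**Figure D1:**
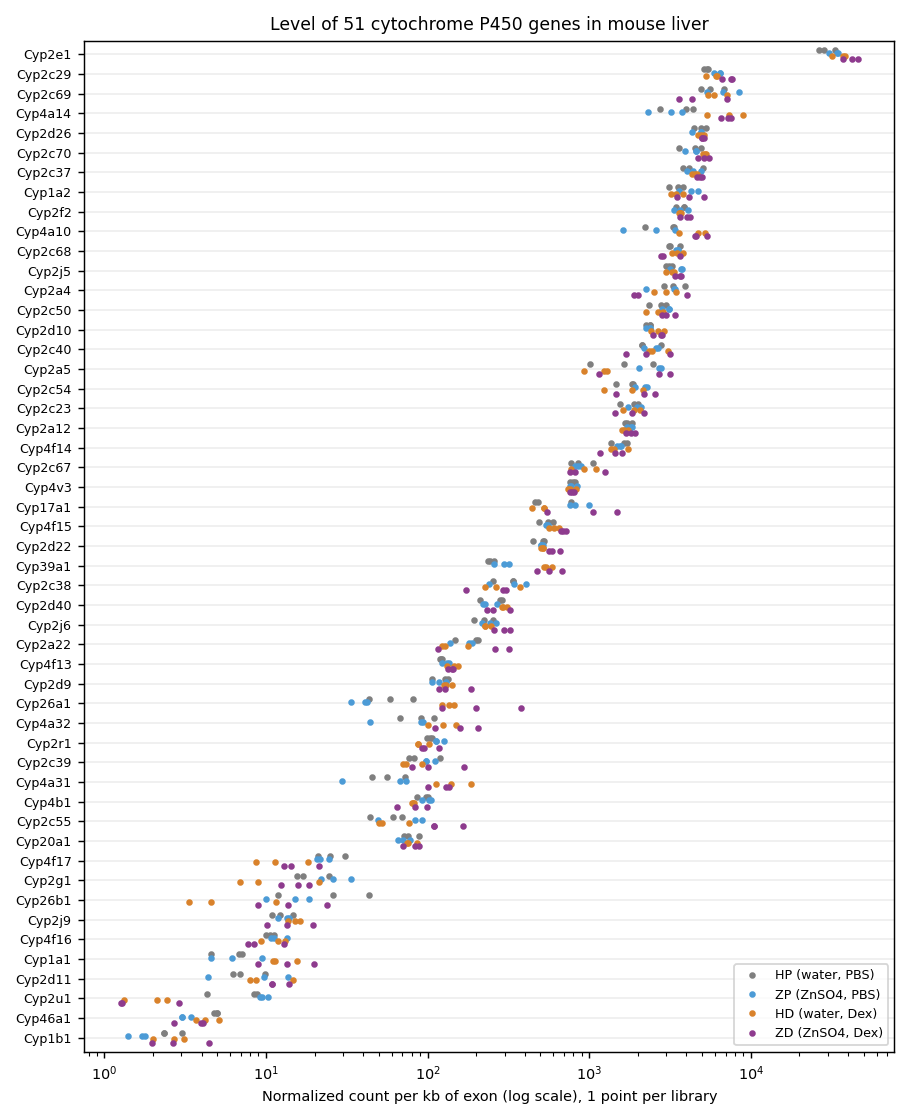
Normalized counts per kb of exon on a log axis for the 51 P450 genes, ordered by their mean over 12 libraries, with 1 point per library coloured by group. *Cyp2e1* stands at 35015 per kb on average and *Cyp1b1* at 2.46, and for most genes the colours of the 4 groups overlap.

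What Dex changed was asked first in mice on plain water (HD against HP) and then in mice on ZnSO4 (ZD against ZP). These comparisons share no library, but both come from 1 fit of all 12 libraries with a common estimate of the spread. In HD against HP, 8 of the 51 genes were called. Of these, 5 rose, namely *Cyp4a31*, *Cyp39a1*, *Cyp26a1*, *Cyp1a1* and *Cyp4a14*, which is 9.80% beside 4.89% of all genes tested. The 3 that fell were *Cyp26b1*, *Cyp2u1* and *Cyp4f17*, which is 5.88% beside 4.79% of all genes tested. In ZD against ZP, 8 genes were again called, 7 higher (13.7%, beside 5.0% of all genes tested) and 1 lower (1.96%, beside 4.68%). In both, 6 genes were called: *Cyp1a1*, *Cyp26a1*, *Cyp39a1*, *Cyp4a14* and *Cyp4a31* were higher with Dex, and *Cyp2u1* was lower. *Cyp26b1* and *Cyp4f17* were called only in plain water and *Cyp4a10* and *Cyp4a32* only with ZnSO4, and for none of these 4 was the difference between both Dex responses called.

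The median LFC of the 51 was 0.04 in HD against HP, where that of all genes tested was -0.01, and 0.13 in ZD against ZP, where that of all genes tested was -0.01. The 95% interval of the LFC (1.96 SE on either side) lay wholly between -0.8 and 0.8 for 33 of the 51 genes in HD against HP and for 30 in ZD against ZP. For another 10 and 13 genes that were not called, the interval reached past the threshold and so still held changes of that size. The summed level of 6 hepatocyte markers, all of them measured, was higher with Dex as well. For *Alb*, *Apoa1*, *Ttr*, *Serpina1e*, *Cps1* and *Ass1* together it was 1165941 to 1344005 normalized counts in HP and 1222444 to 1347824 in ZP, against 1514015 to 1615517 in HD and 1569149 to 1664023 in ZD. Most of this sum was *Alb*, at 961037 to 1349826 over all libraries, so it says little about the others. The part of these markers in the P450 increases was not tested. The count of calls in HD against HP was sensitive to single mice: it was 4 without HD replicate 2 or without HD replicate 3, and 5 without HP replicate 1 or without HP replicate 3.

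**Figure D2:**
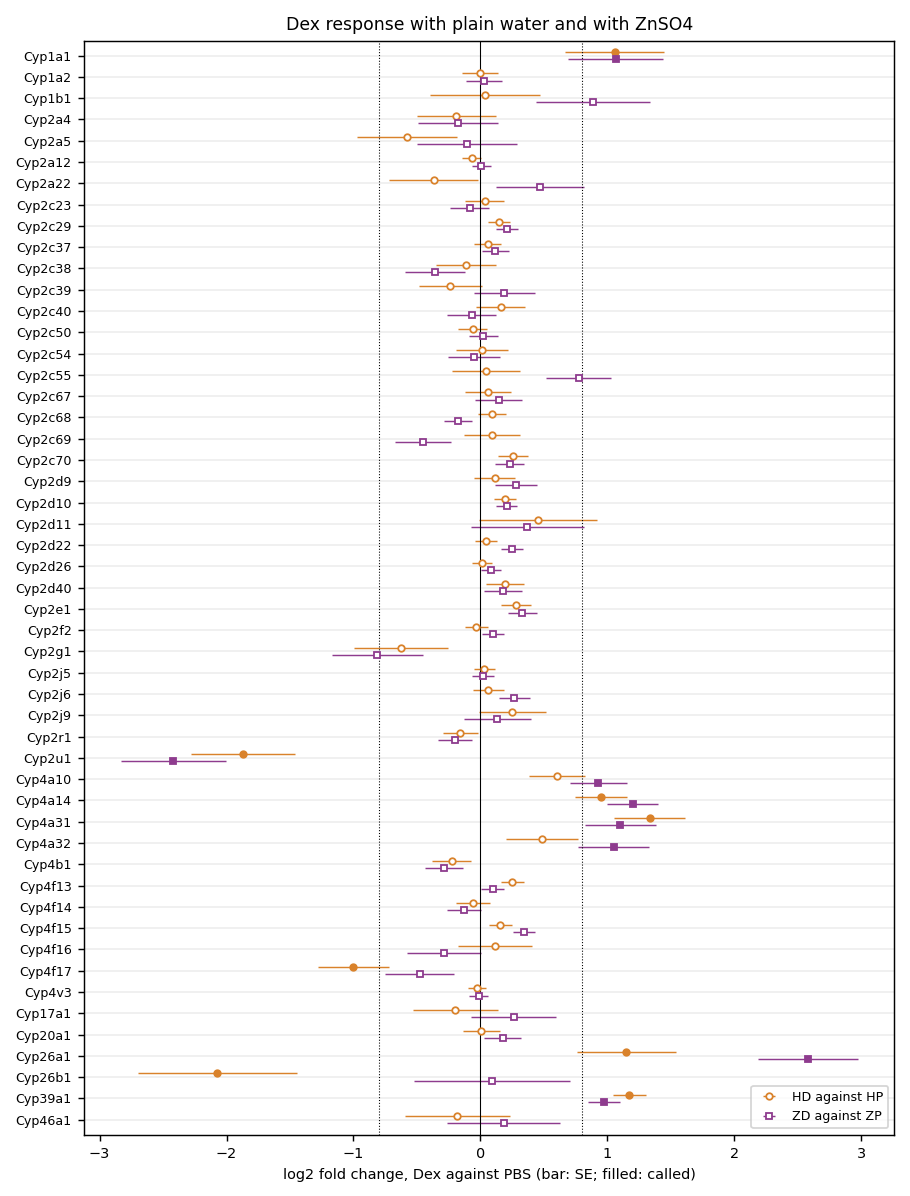
LFC of the 51 P450 genes with Dex in mice on plain water (circles, HD against HP) and on ZnSO4 (squares, ZD against ZP), with bars of 1 SE, filled symbols for called genes and dotted lines at -0.8 and 0.8. *Cyp26a1* lies farthest to the right at 2.58, *Cyp2u1* farthest to the left at -2.42, and the Cyp2c, Cyp2d and Cyp2j rows lie between the dotted lines.

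The Cyp4a genes, ω-hydroxylases of medium- and long-chain fatty acids and well-known targets of PPARα, had positive LFC with Dex in both waters, and 2 of the 4 were called in HD against HP and 4 of the 4 in ZD against ZP. The list's median LFC was 0.78 in the former and 1.08 in the latter. Summed over the 4 genes, the level per library was 12081 to 18916 normalized counts in HP and 9629.8 to 17262 in ZP, against 22047 to 34859 in HD and 27222 to 30653 in ZD. All Dex libraries were above all PBS libraries in this sum. *Cyp4a14* carried most of it, with 11473, 10412 and 7182 in HP, 8303, 6048 and 9797 in ZP, 18974, 23186 and 14030.1 in HD and 19692, 18768 and 16957 in ZD. The Dex and PBS libraries were fully apart in both kinds of water.

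*Cyp4a14* was 1.93-fold higher in HD than HP (LFC 0.95 ± 0.20 (SE), DESeq2 adjusted p = 3.95e-05) and 2.29-fold higher in ZD than ZP (LFC 1.20 ± 0.20 (SE), DESeq2 adjusted p = 8.48e-08). Leaving out HD replicate 2 or HP replicate 3 brought the first LFC to 0.77 or 0.78, just under the threshold, with adjusted p of 0.00311 and 9.88e-04. *Cyp4a31* was much less abundant, at 183, 141 and 113 in HP, 348, 468 and 285 in HD, 171, 74.3 and 186 in ZP and 253, 327 and 342 in ZD. Its Dex libraries too were all above its PBS libraries. It rose 2.52-fold on plain water (LFC 1.33 ± 0.28 (SE), DESeq2 adjusted p = 2.65e-05) and 2.14-fold on ZnSO4 (LFC 1.10 ± 0.28 (SE), DESeq2 adjusted p = 8.68e-04).

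*Cyp4a10*, the other abundant gene of the group, measured 7092, 6965 and 4682 in HP, 9904, 10975 and 7540.4 in HD, 5433, 3439 and 7136 in ZP and 9571, 11244 and 9678 in ZD. It was called in ZD against ZP (LFC 0.93 ± 0.22 (SE), DESeq2 adjusted p = 3.00e-04). In HD against HP the LFC was 0.60 ± 0.22 with an adjusted p of 0.0338, which is under the fold threshold. *Cyp4a32* was called in ZD against ZP (LFC 1.05 ± 0.28 (SE), DESeq2 adjusted p = 0.00172) and not in HD against HP (LFC 0.48 ± 0.28, DESeq2 adjusted p = 0.238), with 141, 68.2 and 143 normalized counts in ZP and 171, 314 and 244 in ZD. For *Cyp4a10*, *Cyp4a31* and *Cyp4a32* the ZD against ZP call rested on ZP replicate 2, the lowest library of each. Without it the LFC was 0.69 with an adjusted p of 0.00399 for *Cyp4a10*, 0.79 with an adjusted p of 0.0066 for *Cyp4a31* and 0.78 with an adjusted p of 0.022 for *Cyp4a32*. The difference between both Dex responses was not called for either gene, with an interaction LFC of 0.33 (95% interval -0.28 to 0.94) for *Cyp4a10* and 0.57 (-0.21 to 1.35) for *Cyp4a32*.

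These 4 genes and *Cyp4b1*, which activates furan toxins in the lung, are neighbours on chromosome 4 of GRCm38, in the order *Cyp4a14*, *Cyp4a10*, *Cyp4a31*, *Cyp4a32*, *Cyp4b1* from 115486200 to 115647723. *Cyp4b1* had 195, 221 and 226 normalized counts in HP and 179.7, 184 and 186 in HD, and its LFC of -0.23 (95% interval -0.52 to 0.07) was not called. The 250 bases before the start of *Cyp4a32* (RefSeq, GRCm38.p6, chr4:115600688-115600937, + strand) are shown because they hold, in capitals, 1 half-site of the glucocorticoid receptor (AGAACA, here on the opposite strand as TGTTCT) and 1 AGTTCA on the opposite strand, a variant half-site of nuclear receptors.
Cyp4a32 promoter: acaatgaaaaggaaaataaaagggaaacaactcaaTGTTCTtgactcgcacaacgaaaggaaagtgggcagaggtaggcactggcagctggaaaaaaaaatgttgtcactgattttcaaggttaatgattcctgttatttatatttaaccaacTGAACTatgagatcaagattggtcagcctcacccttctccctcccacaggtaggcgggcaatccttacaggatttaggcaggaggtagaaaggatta

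AGAACA on either strand was found in 16.1% of 32851 promoters of this length and in 9 of the 40 genes with a promoter in the table. Of the 10 genes called in a Dex comparison, 4 had a promoter there, and 1 of these, *Cyp4a32*, held AGAACA. An exact palindrome of this half-site with 3 bases between was found in 0.00913% of promoters and in 0 of the 40. AGGTCA, the plain nuclear receptor half-site, was in 14% of all promoters and in 5 of the 40.

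*Cyp39a1*, the oxysterol 7α-hydroxylase that acts on 24-hydroxycholesterol, rose in both waters. It measured 788, 719.9 and 744 normalized counts in HP, 981, 793 and 909 in ZP, 1656, 1608 and 1806 in HD and 2087, 1446 and 1733 in ZD. Every Dex library was above every PBS library. The increase was 2.25-fold on plain water (LFC 1.17 ± 0.13 (SE), DESeq2 adjusted p = 1.06e-17) and 1.96-fold on ZnSO4 (LFC 0.97 ± 0.13 (SE), DESeq2 adjusted p = 1.66e-12). The gene lies on chromosome 17 (chr17:43667425-43751431, + strand) and held its call in all 12 refits of either comparison, with LFC between 1.12 and 1.21 in the first and between 0.83 and 1.09 in the second. *Cyp46a1*, which makes its 24-hydroxycholesterol substrate in neurons, had 15.8, 16.4 and 16.5 normalized counts in HP and 12.2, 13.8 and 16.8 in HD (LFC -0.18, 95% interval -0.99 to 0.63).

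**Figure D3:**
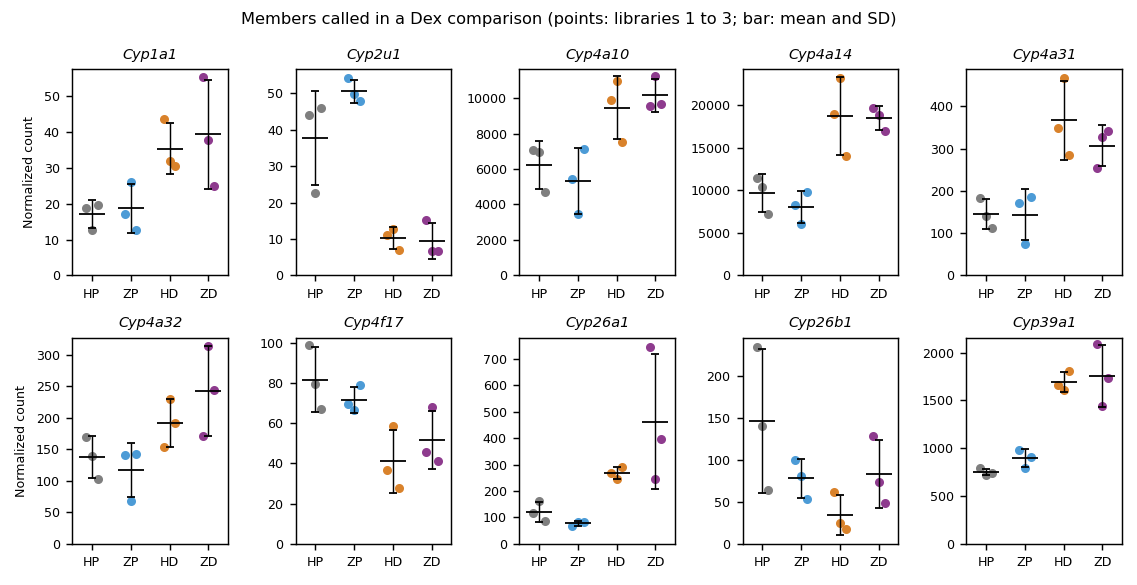
Normalized counts of the 10 genes called in HD against HP or ZD against ZP, with 1 point per library, the mean as a line and the SD as a bar, on axes that start at 0. *Cyp39a1*, *Cyp4a14* and *Cyp4a31* are higher in all 6 Dex libraries than in the 6 PBS libraries, *Cyp2u1* is lower in all 6, and *Cyp26a1* spreads from 245 to 746 among the ZD libraries.

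Both measured retinoic acid hydroxylases were called in HD against HP, in opposite directions. *Cyp26a1*, the liver's main enzyme for clearing all-trans retinoic acid and itself a retinoic acid target, had 116, 160.2 and 85.7 normalized counts in HP and 268, 244 and 289.9 in HD. With ZnSO4 it had 66.8, 83.9 and 81.5 in ZP and 746, 245 and 397 in ZD. Dex libraries lay above PBS libraries throughout, and ZD replicate 1 reached the highest value. The rise was 2.21-fold on plain water (LFC 1.15 ± 0.39 (SE), DESeq2 adjusted p = 0.0191) and 5.98-fold on ZnSO4 (LFC 2.58 ± 0.39 (SE), DESeq2 adjusted p = 1.13e-09), the largest of any of the 51 genes in the latter comparison.

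The *Cyp26a1* call in HD against HP was lost without HD replicate 1, 2 or 3, without HP replicate 1 and without HP replicate 3, where the adjusted p lay between 0.0542 and 0.11 and the LFC between 0.95 and 1.21. In ZD against ZP it held in all 12 refits, with LFC from 2.06 to 2.88. The 2 responses differed by an interaction LFC of 1.43 ± 0.55 (SE), DESeq2 adjusted p = 0.999 and unadjusted p = 0.00943. Without ZD replicate 2, the lowest ZD library, the interaction was called, at an LFC of 1.74 with an adjusted p of 0.00221.

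The promoter of *Cyp26a1* is shown because of the repeat in it (RefSeq, GRCm38.p6, chr19:37697558-37697807, + strand, the 250 bases before its start). The capitals mark TGAACT at 32 and at 21 bases before the start, which is a direct repeat of the half-site AGTTCA on the opposite strand with 5 bases between, the spacing known for retinoic acid receptor sites. The last 10 bases of the window belong to the first exon in GENCODE M21, whose start lies upstream of RefSeq's.
Cyp26a1 promoter: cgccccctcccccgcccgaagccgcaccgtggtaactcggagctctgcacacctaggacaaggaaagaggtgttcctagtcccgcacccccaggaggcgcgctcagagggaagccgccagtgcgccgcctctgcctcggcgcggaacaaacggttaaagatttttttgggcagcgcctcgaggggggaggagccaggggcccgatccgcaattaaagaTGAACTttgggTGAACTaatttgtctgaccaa

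A repeat of AGGTCA or AGTTCA with this spacing was found in 11 of 32851 promoters, or 0.0335%, and in 1 of the 40 P450 genes with a promoter in the table. The single half-site AGTTCA on either strand was in 11.8% of all promoters and in 8 of the 40.

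*Cyp26b1*, the second retinoic acid hydroxylase, varied widely among mice and fell from replicate 1 to replicate 3 in every group. It measured 234, 140.2 and 63.7 in HP and 61.9, 24.5 and 17.8 in HD, 99.3, 81.3 and 53.4 in ZP and 128, 73.3 and 48.1 in ZD. All HD libraries were below all HP libraries, while ZD and ZP overlapped. It was 4.2-fold lower in HD than HP (LFC -2.07 ± 0.62 (SE), DESeq2 adjusted p = 0.00659), but in ZD against ZP the LFC was 0.09 (95% interval -1.12 to 1.30). The decrease on plain water was not called without HD replicate 2, HD replicate 3 or HP replicate 1, where the LFC was -1.87 with an adjusted p of 0.0555, -1.75 with an adjusted p of 0.0525 and -1.56 with an adjusted p of 0.0767. The interaction LFC was 2.16 ± 0.88, DESeq2 adjusted p = 0.999 and unadjusted p = 0.0137. For stellate cells, which store vitamin A, the summed level of 5 markers was 4095 to 4368 normalized counts in HP, 4361 to 4444 in HD, 3903 to 3952 in ZP and 4268 to 5116 in ZD, and its part in the *Cyp26* differences was not tested. *Cyp26c1*, the other gene of the family, had at most 7 counts in any library.

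The gene called lower in both Dex comparisons was *Cyp2u1*, a hydroxylase of long-chain fatty acids including arachidonic acid. It measured 44.1, 22.8 and 46.1 normalized counts in HP and 54.2, 49.8 and 48.0 in ZP, against 11.2, 12.8 and 6.93 in HD and 15.2, 6.66 and 6.73 in ZD. All 6 Dex libraries were below all 6 PBS libraries. The gene was 3.65-fold lower on plain water (LFC -1.87 ± 0.41 (SE), DESeq2 adjusted p = 6.51e-05) and 5.35-fold lower on ZnSO4 (LFC -2.42 ± 0.41 (SE), DESeq2 adjusted p = 8.75e-08), and it was called in all 12 refits of each. These are small counts, 11, 12 and 7 raw counts in HD and 14, 6 and 7 in ZD, over an exon length of 5242 bp. The gene (chromosome 3, chr3:131288441-131303227, - strand) shares exon bases with *4930534D22Rik* on the opposite strand, which had 0 counts in every library. The strand setting of the counting is not given in the sources used here, so reads of this pair cannot be told apart.

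*Cyp4f17*, in a subfamily whose enzymes hydroxylate leukotrienes and long-chain fatty acids, had 98.7, 79.2 and 67.0 in HP and 36.5, 58.5 and 27.7 in HD, with no overlap. In mice on ZnSO4 it had 69.5, 66.4 and 78.8 in ZP and 45.6, 67.8 and 41.3 in ZD, which overlap. It fell 2.00-fold on plain water (LFC -1.002 ± 0.28 (SE), DESeq2 adjusted p = 0.00271). The LFC in ZD against ZP was -0.48 ± 0.27 with an adjusted p of 0.24. Without HD replicate 3, the lowest library, the first LFC was -0.78 with an adjusted p of 0.0497. *Cyp4f14*, a leukotriene B4 and vitamin E ω-hydroxylase and the most abundant of the 5 Cyp4f genes per kb, had an LFC of -0.06 in HD against HP (95% interval -0.32 to 0.20). *Cyp4f13* and *Cyp4f15* passed the adjusted p without the fold, *Cyp4f13* at 0.25 in HD against HP (DESeq2 adjusted p = 0.0329) and *Cyp4f15* at 0.34 in ZD against ZP (DESeq2 adjusted p = 0.00125).

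Of the 3 Cyp1 genes, which oxidise polycyclic aromatic compounds and are switched on by the dioxin receptor, *Cyp1a1* was called in both Dex comparisons. Its raw counts were 18, 14 and 18 in HP, 43, 30 and 31 in HD, 19, 30 and 14 in ZP and 51, 34 and 26 in ZD. After normalization HD lay above HP, while the lowest ZD library (25.0) was below the highest ZP library (26.2). The increase was 2.08-fold on plain water (LFC 1.06 ± 0.39 (SE), DESeq2 adjusted p = 0.033) and 2.09-fold on ZnSO4 (LFC 1.07 ± 0.37 (SE), DESeq2 adjusted p = 0.0258).

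Neither *Cyp1a1* call was firm. In HD against HP it was lost when any 1 of the 6 libraries was left out, with adjusted p of 0.0514 to 0.183 and LFC of 0.87 to 1.17. In ZD against ZP it was lost without ZD replicate 1, ZD replicate 2, ZP replicate 1 or ZP replicate 3, at LFC of 0.74, 1.09, 1.01 and 0.85. The hepatic *Cyp1a2*, with 6326, 7136 and 7669 normalized counts in HP and 7647, 6985 and 6440.2 in HD, had an LFC of -0.004 with a 95% interval of -0.28 to 0.27. *Cyp1b1*, at 9.93, 10.5 and 8.15 in ZP and 26.1, 15.6 and 11.5 in ZD, had an LFC of 0.89 with an adjusted p of 0.168.

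In 14 of the 21 subfamilies, with 36 of the 51 genes, no gene was called with Dex in either water. All 13 Cyp2c genes, which code for arachidonic acid epoxygenases and drug-metabolising enzymes and of which 12 form a cluster on chromosome 19, had their 95% interval within the threshold in HD against HP. Their LFC ran from -0.24 to 0.26, with a median of 0.06. *Cyp2c29*, the most abundant of them, had 16396, 15642 and 16570.1 normalized counts in HP and 18855, 16179.9 and 18738 in HD, which overlap (LFC 0.15, 95% interval -0.02 to 0.31). The 6 Cyp2d genes ran from 0.01 to 0.45, and *Cyp2d26*, the most abundant, had an LFC of 0.01 (-0.15 to 0.17). The 3 Cyp2j genes ran from 0.03 to 0.25, and *Cyp2j5*, an arachidonic acid epoxygenase, had 0.03 (-0.14 to 0.20).

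*Cyp2e1*, the most abundant gene, passed the adjusted p with Dex only on ZnSO4 and there stayed under the fold threshold. It measured 61603, 71846 and 57322 normalized counts in HP, 83151, 80190.2 and 68241 in HD, 65584, 73833 and 75107 in ZP and 80031, 90957 and 98879 in ZD. In ZD against ZP the groups did not overlap and the LFC was 0.33 ± 0.12 (DESeq2 adjusted p = 0.0241). In HD against HP the groups overlapped and it was 0.28 ± 0.12 (DESeq2 adjusted p = 0.0655). The difference between both responses was an LFC of 0.05 (95% interval -0.27 to 0.37) and was not called.

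The 4 Cyp2a genes, which oxidise coumarin and testosterone, ran from -0.58 to -0.07 in HD against HP. *Cyp2a4*, the testosterone 15α-hydroxylase and the most abundant of them per kb, measured 6836, 5766 and 5082 normalized counts in HP and 4359, 5209 and 5950.4 in HD (LFC -0.19, 95% interval -0.80 to 0.43). In the same comparison the LFC was -0.03 (95% interval -0.21 to 0.14) for *Cyp2f2*, -0.03 (-0.17 to 0.12) for *Cyp4v3*, a fatty acid ω-hydroxylase, and 0.01 (-0.28 to 0.30) for the orphan enzyme gene *Cyp20a1*. *Cyp2r1*, the vitamin D 25-hydroxylase, measured 225, 211 and 219.7 in HP and 216, 184 and 186 in HD (LFC -0.16, -0.43 to 0.11). *Cyp2g1*, best known from the olfactory mucosa, had an LFC of -0.63 ± 0.37 with an adjusted p of 0.247. Without HD replicate 1, its highest HD library, it was called, at -1.28 with an adjusted p of 0.00833.

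Whether ZnSO4 alone changed these genes was asked with ZP against HP. None of the 51 was called by DESeq2, beside 0.138% of all genes tested called in either direction. At an unadjusted p under 0.05 there were 2, *Cyp2c29* and *Cyp2j5*, both higher in ZP, which is 3.92% beside 5.74% of all genes tested, and edgeR called 0. *Cyp2c29* had 19814, 19837 and 18209 normalized counts in ZP, all above HP, and an LFC of 0.25 ± 0.08 (DESeq2 adjusted p = 0.297). The median LFC of the 51 genes was 0.06, where that of all genes tested was -0.001. For 39 genes the 95% interval lay wholly within the fold threshold. The lowest LFC was that of *Cyp26b1* (-0.90, 95% interval -2.11 to 0.30) and the highest that of *Cyp17a1* (0.58, -0.07 to 1.24), and neither was called.

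ZnSO4 was also compared between the Dex-injected groups, ZD against HD, where *Cyp2c55* alone was called. That is 1 higher of 51, or 1.96%, beside 0.305% of all genes tested, and 0 lower, beside 0.164%. A further 12 genes had an unadjusted p under 0.05, which makes 25.5% of the 51 beside 10.2% of all genes tested, and all 13 were higher in ZD, while the median LFC of the 51 genes was 0.12 and that of all genes tested 0.002. *Cyp2c55*, which hydroxylates arachidonic acid and responds to CAR and PXR ligands, had 122, 138 and 87.9 normalized counts in HP, 168, 184 and 98.7 in ZP, 105, 99.97 and 154 in HD and 218, 218 and 333 in ZD. All ZD libraries were above the libraries of the other groups. It was 2.14-fold higher in ZD than HD (LFC 1.10 ± 0.26 (SE), DESeq2 adjusted p = 0.00524).

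The *Cyp2c55* call in ZD against HD was not made by edgeR (adjusted p = 0.0746), without HD replicate 1 (LFC 1.01 with an adjusted p of 0.0625) or without ZD replicate 3 (LFC 0.87 with an adjusted p of 0.0921). Against HP, ZD was 2.21-fold higher (LFC 1.14 ± 0.26 (SE), DESeq2 adjusted p = 1.26e-04), a call held in all 12 refits. ZP against HP gave 0.37 (95% interval -0.15 to 0.88) and HD against HP 0.04 (-0.48 to 0.56). ZD against ZP gave 0.77 with an adjusted p of 0.0168 (DESeq2), under the fold threshold, and was called without ZD replicate 1 (0.88), ZD replicate 2 (0.88), ZP replicate 1 (0.86) or ZP replicate 2 (0.94). The interaction LFC was 0.73 with an unadjusted p of 0.0484 and an adjusted p of 0.999 (DESeq2). *Cyp2c29*, an epoxygenase also known to respond to CAR ligands, passed the adjusted p without the fold, at 0.32 ± 0.08 (DESeq2 adjusted p = 0.0212).

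**Figure D4:**
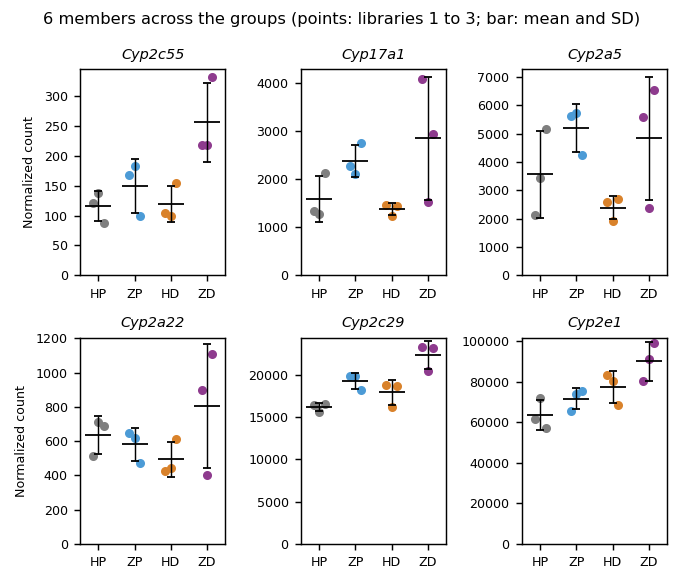
Normalized counts of *Cyp2c55*, *Cyp17a1*, *Cyp2a5*, *Cyp2a22*, *Cyp2c29* and *Cyp2e1* in the 4 groups, with 1 point per library, the mean as a line and the SD as a bar. *Cyp2c55* is highest in the 3 ZD libraries (218 to 333), and 1 ZD point, that of replicate 2, is the lowest of its group for *Cyp17a1*, *Cyp2a5* and *Cyp2a22*.

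In several genes ZD replicate 2 stood below ZD replicates 1 and 3. *Cyp17a1*, the steroid 17α-hydroxylase, measured 1343, 1278 and 2133 in HP, 2276, 2106 and 2748 in ZP, 1462, 1229 and 1449.5 in HD and 4092, 1522 and 2931 in ZD. All ZD libraries lay above HD, and the LFC of 1.04 ± 0.33 had an adjusted p of 0.095 (DESeq2). *Cyp2a5*, the coumarin 7-hydroxylase, had 2576, 1917 and 2678 in HD and 5595, 2385 and 6532 in ZD, which overlap (LFC 1.02 ± 0.39, DESeq2 adjusted p = 0.231). It had 2114, 3428 and 5172 in HP and 5638, 5735 and 4237 in ZP, and ZD overlapped both. Without ZD replicate 2, 5 genes were called in ZD against HD: *Cyp2c55*, *Cyp17a1* at 1.35 with an adjusted p of 1.22e-07, *Cyp2a5* at 1.34 with an adjusted p of 0.0102, *Cyp26a1* at 1.10 with an adjusted p of 0.00318 and *Cyp2a22* at 1.02 with an adjusted p of 6.84e-05. *Cyp2a5* shares 37% of its 50-base windows with other genes, most of them with *Cyp2a4*, and *Cyp2a22* 20.2%, all of them with *Cyp2a12*. The summed level of 4 bile duct markers (*Krt19*, *Krt7*, *Epcam* and *Spp1*) was 556 to 787 normalized counts in HD and 918 to 1134 in ZD. It was 687 to 784 in HP and 621 to 1115 in ZP, which overlaps ZD. Most of it was *Spp1*, at 526 to 1050 over all libraries, and the part of this sum in the ZD against HD differences was not tested. Of the adrenal cortex markers, *Star* and *Hsd3b1* were measured, while *Mc2r* and *Nr5a1* were at 0 in every library. The sum was 15.75 to 19.77 in HP, 20.98 to 32.59 in ZP, 29.4 to 37.6 in HD and 34.8 to 37.5 in ZD. HP thus lay below the other groups, and the part of this sum in the *Cyp17a1* differences was not tested.

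ZD against HP, which shares libraries with the comparisons above, called 8 genes higher (15.7%, beside 5.59% of all genes tested) and 1 lower (1.96%, beside 5.63%). The 9 were *Cyp26a1* (1.94), *Cyp39a1* (1.23), *Cyp1a1* (1.20), *Cyp2c55* (1.14), *Cyp4a31* (1.08), *Cyp4a14* (0.93), *Cyp17a1* (0.85), *Cyp4a32* (0.82) and *Cyp2u1* (-1.98), with LFC in brackets. The *Cyp17a1* call had an adjusted p of 0.0472 with overlapping groups, and was lost without HP replicate 1 (0.74), HP replicate 2 (0.71), ZD replicate 1 (0.49) or ZD replicate 3 (0.83), and also without independent filtering and with only the 6 libraries compared, at adjusted p of 0.0858 and 0.209. *Cyp4a32* was lost without HP replicate 2 (0.84), HP replicate 3 (0.65), ZD replicate 2 (0.59) or ZD replicate 3 (0.82), *Cyp1a1* without HP replicate 2 (1.02) or ZD replicate 1 (0.88), and *Cyp4a14* without HP replicate 3 (0.76). *Cyp4f17*, at -0.67 with an adjusted p of 0.0569, was called lower without ZD replicate 2, at -0.91 with an adjusted p of 0.0147.

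The test of whether ZnSO4 altered the Dex response, the interaction of both, called none of the 51 genes with DESeq2, beside 0.0191% of all genes tested. At an unadjusted p under 0.05 there were 3, *Cyp26a1*, *Cyp26b1* and *Cyp2c55*, all with a more positive response on ZnSO4. That is 5.88% beside 1.99% of all genes tested, and edgeR called 0. Both shares of all genes are over 26185 genes, while 13255 in the table passed the count filter that the 51 passed. Many genes with fewer counts are thus included, and the shares are not like for like. Without ZD replicate 2 there were 2 calls, *Cyp26a1* and *Cyp2a22* (LFC 1.16 with an adjusted p of 0.0103). The 95% interval lay within the threshold for 28 of the 51 genes, and for the other 23 it reached past the threshold and so still held differences of that size.

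P450 enzymes depend on partners, and these were followed in 3 lists, to be read beside the 4.89% of all genes tested that were called higher and the 4.79% called lower in HD against HP. Among 6 measured genes of electron transfer, 1 was called with Dex: *Por*, the reductase that serves the P450s of the endoplasmic reticulum. It measured 2959, 3339 and 2914 normalized counts in HP, 4496, 3292 and 3763 in ZP, 8311, 9516 and 8409 in HD and 10279, 9727 and 10891 in ZD, with no overlap of Dex and PBS libraries. *Por* rose 2.85-fold on plain water (LFC 1.51 ± 0.11 (SE), DESeq2 adjusted p = 1.29e-37) and 2.67-fold on ZnSO4 (LFC 1.42 ± 0.11 (SE), DESeq2 adjusted p = 1.64e-33). The median LFC of the list was -0.05 in HD against HP.

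Among 12 genes of haem synthesis and breakdown, 1 was called, a share near that background: *Alas1*, the rate-limiting enzyme of haem synthesis in the liver. It measured 3709, 4118 and 2426 in HP, 1924, 4669 and 2028 in ZP, 20111, 13499 and 17599.9 in HD and 15149, 13063 and 21439 in ZD. All Dex libraries were above all PBS libraries, and the rise was 4.99-fold in HD against HP (LFC 2.32 ± 0.40 (SE), DESeq2 adjusted p = 1.61e-07) and 5.76-fold in ZD against ZP (LFC 2.53 ± 0.40 (SE), DESeq2 adjusted p = 8.55e-09). The list's median LFC was 0.02 in HD against HP.

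Of 22 measured regulators of P450 genes, 4 were called higher (beside 4.89% of all genes tested) and 2 lower (beside 4.79%) in HD against HP, with a median LFC of -0.02. *Ahr*, the dioxin receptor, had 628, 705 and 769 in HP and 2271, 1893 and 2400.3 in HD (LFC 1.64 ± 0.16 (SE), DESeq2 adjusted p = 3.81e-22). *Cebpb*, a liver-enriched bZIP factor, rose with an LFC of 2.13 ± 0.21 (DESeq2 adjusted p = 2.85e-23) and *Cebpa* fell with -0.89 ± 0.14 (DESeq2 adjusted p = 1.50e-09). *Bcl6* and *Cux2*, repressors tied to sex-dependent P450 expression, rose by 1.90 ± 0.70 (DESeq2 adjusted p = 0.0341) and 1.004 ± 0.35 (DESeq2 adjusted p = 0.0212). *Dbp*, a clock-driven activator of P450 genes, had 31.5, 77.3 and 143 in HP and 9.14, 10.6 and 0.989 in HD, an LFC of -3.60 ± 0.96 (DESeq2 adjusted p = 0.00167). It also differed between the waters, with 260, 286 and 270 in ZP, all above HP, and 33.7, 7.78 and 108 in ZD. It was not called in ZP against HP. In ZD against ZP, *Ahr* (1.90), *Cebpb* (2.16), *Cebpa* (-0.99), *Cux2* (1.10) and *Dbp* (-2.45) were called again, with LFC in brackets, while *Bcl6* was not (LFC 1.64 ± 0.70, DESeq2 adjusted p = 0.0819). On plain water, 13 of the 22 regulators passed the adjusted p, those called included. Among the receptor genes, *Nr1i2* (PXR, LFC 0.58), *Ppara* (0.46), *Nr1i3* (CAR, -0.50) and *Nr3c1* (the glucocorticoid receptor, -0.31) passed it without the fold, at 1.05e-06, 0.00219, 4.27e-05 and 9.53e-04 (DESeq2).

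**Figure D5:**
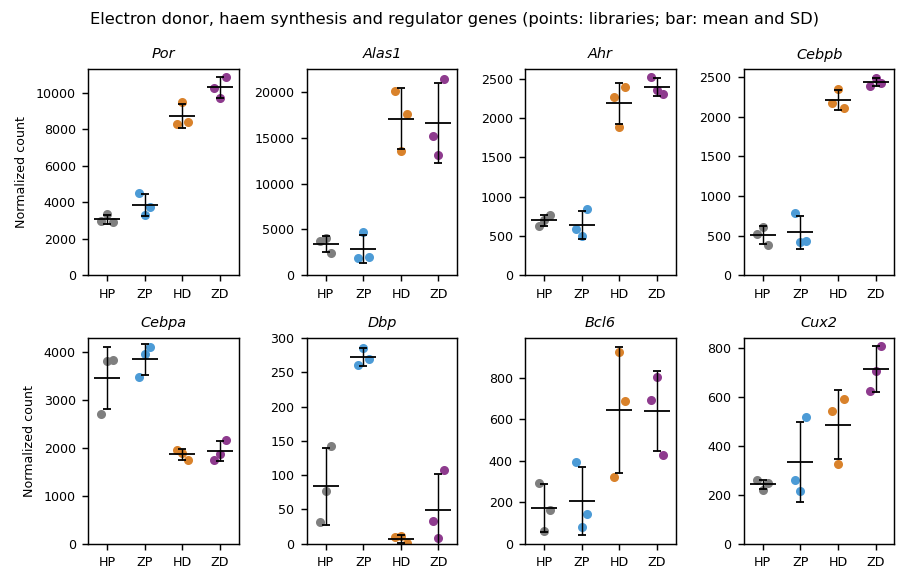
Normalized counts of the P450 reductase gene *Por*, the haem synthesis gene *Alas1* and 6 regulators in the 4 groups, with 1 point per library, the mean as a line and the SD as a bar, on axes that start at 0. *Por*, *Alas1*, *Ahr* and *Cebpb* are higher in all 6 Dex libraries than in the 6 PBS libraries, and *Cebpa* is lower.

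The 30 P450 genes under the count filter were not tested as members. Of these, 12 had no count in any library, and 22 had at most 3 counts in every library, the 12 included. They comprise the steroid synthesis genes *Cyp11a1*, *Cyp11b1*, *Cyp11b2*, *Cyp19a1* and *Cyp21a1*, none of which had more than 1 count in a library, which leaves *Cyp17a1* as the 1 steroid synthesis P450 measured in this liver RNA. They also comprise *Cyp24a1* and *Cyp27b1*, which inactivate and activate vitamin D in the kidney, and *Cyp4a12a* and *Cyp4a12b*, which are male-biased in mouse liver and had at most 12 and 2 counts. Reads from other tissues were looked for with marker genes. All 4 kidney markers, *Umod*, *Slc34a1*, *Slc22a6* and *Slc12a1*, had 0 counts in all libraries, and so did 3 of 5 pancreas markers, *Prss2*, *Cpa1* and *Pnlip*, while *Ctrb1* and *Cela2a* summed to at most 11.1 normalized counts. The 5 Kupffer cell markers summed to 3729 to 5338 normalized counts in HP, 4307 to 4694 in ZP, 4152 to 5065 in HD and 4069.9 to 4479 in ZD, and the 5 markers of sinusoidal endothelium to 3744 to 4352, 4030.5 to 4320.0, 4264 to 4728 and 4403 to 4749.7. The 5 gut epithelium markers summed to 624 to 816 in HP, 693 to 829 in ZP, 587 to 709.7 in HD and 602 to 741 in ZD. Most of the gut sum was *Fabp2*, at 503 to 737 over all libraries. *Lgals4* reached at most 101, *Vil1* 25.3, *Alpi* 4.51 and *Cdx1* 2.71. The 3 red blood cell markers summed to 733 to 1239 in HP, 622 to 774 in ZP, 965 to 1682 in HD and 1077 to 1224 in ZD. HD and HP overlapped in each of these 4 lists, ZD and ZP overlapped in the Kupffer and gut lists, and the part of the lists in the P450 results was not tested.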

How the data were processed

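Liver RNA of 12 mice was sequenced as single-end reads of stranded libraries. The authors mapped the reads to mm10 with HISAT2 2.0.4 and counted them per Ensembl gene with featureCounts, leaving out multimapping reads. The values they deposited are the raw counts, with 1 column per mouse and no normalization. Libraries held 9091152 to 12303527 counts, so that 3 counts are 0.244 to 0.330 CPM, which covers counting error only. The annotation release and strand setting are not given in the sources used here. Columns were assigned to groups by the labels.

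Symbols, coordinates and exon lengths were taken from GENCODE M21 (GRCm38, the build of mm10), and promoters from RefSeq (GRCm38.p6), which matched 40 of the 51 genes. No protein table was used. DESeq2 1.42.0 (R 4.3.3) was fitted to the counts of all genes in 12 libraries with 1 coefficient per group. The study's methods also name DESeq2, at an FDR of 5%. Wald tests used unshrunken LFC, and p-values were adjusted over all genes by the method of Benjamini and Hochberg. The script was tested on simulated data. Alternatives were edgeR 4.0.16 (quasi-likelihood test), TMM factors, a filter of 10 counts in 3 libraries, no independent filtering, the replicate number as a block, leaving out each library, fitting only the 6 libraries compared, and no fold threshold.

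The members and lists were chosen with earlier results of these data known. Genes named are those called in ZP against HP, ZD against HD or the interaction, up to 10 increases and 10 decreases with Dex on plain water by size of LFC where the mean over all libraries reached 50 normalized counts, the most abundant gene per kb of each subfamily, genes called in 1 of both Dex comparisons whose mean reached 200, and partner genes called in HD against HP. Further P450 genes, such as *Cyp1a1*, *Cyp4a32*, *Cyp2a5*, *Cyp2a22*, *Cyp2c69*, *Cyp2c70*, *Cyp2d9*, *Cyp4f13* and *Cyp4f15*, and *Tef*, *Stat5a*, *Nr0b2* and the receptor genes under the fold threshold were named after their values were seen. For 1 cell type of those looked at, the summed marker level is not reported here.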

Additional observations from a re-analysis of the deposited data

How the results depend on the processing

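Alternatives were run for the counts of calls and for 38 differences of single genes, and no direction reversed among these. The count of 8 genes called in HD against HP ranged from 4 to 8 when 1 library was left out, that of 8 in ZD against ZP from 6 to 8, that of 1 in ZD against HD from 0 to 5, that of 9 in ZD against HP from 6 to 9, and that of 0 for the interaction from 0 to 2; ZP against HP stayed at 0. ZD against HD gave 0 calls without HD replicate 1 or without ZD replicate 3 and 5 without ZD replicate 2. edgeR gave 0 calls in ZD against HD, and the adjusted p alone gave 2 there and 15 in ZD against HP. Pairing by replicate number was not seen across the 2000 genes that varied most. Over 18 pairs of same-numbered libraries, their deviations from the group means correlated at -0.18 to 0.096, with none over 0.1. Such correlations do not test single genes, such as *Cyp26b1*, which fell from replicate 1 to replicate 3 in every group. With the replicate number as a block, 7 genes were called in HD against HP, 3 in ZD against HD (*Cyp17a1*, *Cyp26b1* and *Cyp2c55*) and 1 for the interaction (*Cyp26b1*). *Cyp1a1* in HD against HP was also lost with the block (adjusted p = 0.0542) and without independent filtering (adjusted p = 0.0604). *Cyp2u1* and *Cyp39a1* were called in all 12 refits of each Dex comparison. TMM factors shifted the median LFC of all genes by 0.0048. Replicates differed by 6.20 to 20.7 times counting error (chi-square per degree of freedom), so none was a copy of another. Depth limits genes near 10 counts most: the 95% interval of *Cyp46a1* in HD against HP, -0.99 to 0.63, reached past the threshold.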

Other observations

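P450 genes known to differ between zones of the liver lobule were followed as lists. The 5 pericentral genes *Cyp1a2*, *Cyp2a5*, *Cyp2c29*, *Cyp2c37* and *Cyp2e1* were not called in HD against HP, with LFC from -0.58 to 0.28 and a median of 0.06, or in ZP against HP, with 0.03 to 0.54 and a median of 0.25. In ZD against HD their LFC ran from 0.09 to 1.02 with a median of 0.29, and none was called. The periportal *Cyp2f2* had -0.03, -0.02 and 0.12 in these comparisons.

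Of 6 female-biased genes (*Cyp2a4*, *Cyp2c40*, *Cyp2c69*, *Cyp4a14*, *Cyp17a1* and *Cyp39a1*), 2 were called higher with Dex in each water, *Cyp4a14* and *Cyp39a1*, beside 4.89% of all genes tested in HD against HP and 5.0% in ZD against ZP, and the list's median LFC was 0.12 in HD against HP and 0.10 in ZD against ZP. The male-biased *Cyp2d9* had 284, 341 and 354 normalized counts in HP and 344, 376 and 336 in HD (LFC 0.11, 95% interval -0.21 to 0.43), while the male-biased *Cyp2u1* fell as described. Among the 6 CAR-responsive genes outside Cyp2b and Cyp3a, *Cyp2a5*, *Cyp2c29*, *Cyp2c37*, *Cyp2c50*, *Cyp2c54* and *Cyp2c55*, the median LFC was 0.28 in ZD against HD and 0.28 in ZP against HP, where the medians of all genes tested were 0.002 and -0.001. Of these, *Cyp2c55* was called in ZD against HD and none in ZP against HP.

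Further regulators were called outside the comparison of HD with HP. *Tef*, a clock-linked bZIP activator, was called higher in ZD than HD (LFC 0.89 ± 0.18 (SE), DESeq2 adjusted p = 3.37e-04). It was also higher with ZnSO4 after PBS, at 1170, 1090 and 1093 normalized counts in ZP and 510, 672 and 846 in HP, but was not called there. *Stat5a* was called lower in ZD than ZP (LFC -1.35 ± 0.20 (SE), DESeq2 adjusted p = 7.70e-10). On plain water it was lower with Dex as well, though not called, at 167, 165 and 215 normalized counts in HP and 83.3, 111 and 138 in HD, without overlap. *Nr0b2*, the corepressor SHP, was called lower in ZD than HP (LFC -1.66 ± 0.41 (SE), DESeq2 adjusted p = 4.04e-04). *Nr0b2* measured 584, 360 and 280 normalized counts in HP, 161, 146 and 135 in ZP and 73.9, 187 and 127 in ZD. Its ZP libraries were already all below HP and overlapped ZD, although no regulator was called in ZP against HP. In that comparison, 1 of the 22 measured regulators passed the adjusted p without the fold.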
